A study of Mus musculus with 18 samples.

Results

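The chemokine genes Ccl3, Ccl4, Ccl5 and Xcl1, whose products effector T cells release themselves, were followed in CD4+ effector T cells from 3 organs. They were chosen by name, and are 4 of the 34162 genes in the table. All 4 had enough counts to be tested and so are 4 of 14876 tested genes. Each of 18 libraries was made from about 500 sorted cells, collected in week 3 after cell transfer. The hosts were Rag deficient, so lymphocytes with rearranged receptors could come only from the donors. Donor cells came from C57BL/6 CD45.1+ donors (wild type, WT), which carry a marker form of the surface protein CD45, or from C57BL/6 Nr1i3-/- donors, which lack the xenobiotic-sensing nuclear receptor CAR. Cells of each genotype were taken from the spleen, the colon lamina propria (cLP) and the small intestine lamina propria (siLP), with 3 libraries in each of the 6 groups. The labels do not say whether cells of both genotypes shared a host, nor the age of the mice, nor whether a group's libraries represent separate animals, so every p-value measures only the spread between these libraries. The WT cells carry the CD45.1 form and the Nr1i3-/- cells do not, so a genotype difference holds both alleles.

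Chemokines are small secreted proteins that direct the movement of other leukocytes through receptors coupled to G proteins. Ccl3, Ccl4 and Ccl5 encode CC chemokines that attract T cells, monocytes and macrophages, and T cells transcribe Ccl3 and Ccl4 quickly after their antigen receptor is engaged. Ccl5 (RANTES) is instead a late gene of effector and memory T cells that is kept at a high message level. Xcl1 (lymphotactin) has its own receptor, Xcr1, on the dendritic cells that present antigen to CD8 T cells.

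The 3 CC genes lie on mouse chromosome 11 in GRCm38. Ccl3 (ENSMUSG00000000982) spans chr11:83647844-83649355 on the minus strand, and Ccl4 (ENSMUSG00000018930) spans chr11:83662584-83664683 on the plus strand, 13.2 kb away. Ccl5 (ENSMUSG00000035042) spans chr11:83525778-83530518 on the minus strand, 117 kb from Ccl3. Xcl1 (ENSMUSG00000026573) spans chr1:164931644-164935527 on the minus strand, 6.28 Mb from Nr1i3 and 26.8 Mb from Ptprc, the gene of CD45. No other gene of the table overlaps any of the 4. RefSeq promoter sequence (GRCm38.p6) matched 2 of the 4 genes, Ccl3 and Xcl1. Only these 2 are shown for that reason. The Ccl3 run ends just before its RefSeq start (chr11:83649378), which lies upstream of the gene start given above. The Xcl1 run ends just before the gene start given above, which lies upstream of its RefSeq start (chr1:164935522). Both are written 5′ to 3′ on the minus strand and cover chr11:83649379-83649628 for Ccl3 and chr1:164935528-164935772 for Xcl1.
Ccl3: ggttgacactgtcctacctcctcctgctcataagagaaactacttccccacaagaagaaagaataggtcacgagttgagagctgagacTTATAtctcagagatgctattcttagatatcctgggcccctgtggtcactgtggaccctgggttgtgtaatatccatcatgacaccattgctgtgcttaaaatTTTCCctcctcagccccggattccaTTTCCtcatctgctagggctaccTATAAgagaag
Xcl1: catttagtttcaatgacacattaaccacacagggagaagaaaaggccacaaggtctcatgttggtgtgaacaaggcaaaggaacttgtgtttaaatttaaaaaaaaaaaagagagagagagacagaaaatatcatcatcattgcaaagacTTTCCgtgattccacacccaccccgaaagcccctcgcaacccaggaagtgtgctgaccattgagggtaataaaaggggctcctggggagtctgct
Capitals mark matches to 4 motifs searched on both strands: an NF-kappaB form (GGGNNNNNCC), the NFAT core GGAAA, the AP-1 form TGANTCA and the TATA form TATAA. The Ccl3 window held 2 NFAT core and 2 TATA matches, and the Xcl1 window 1 NFAT core match. Of 32851 promoter windows of 250 bases, 55.6% held the NFAT core, 22.8% the TATA form, 45.8% the NF-kappaB form and 6.75% the AP-1 form. A match describes letters only, and the libraries measure no binding.

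Total estimated counts ran from 19605135 to 25436389 per library, and levels are given as CPM, counts scaled to a common library size with TMM factors. In these units 3 counts, taken as the floor, were worth 0.108 to 0.185. Libraries are called a, b and c within a group by the order of their columns, which is only a name. The 6 libraries a stood apart, with fewer genes detected (15466 to 16128) than any of the remaining 12 (17013 to 18819), and with 3.70% to 3.98% of counts from mitochondrial genes against 2.23% to 3.22%. Values are therefore given by letter. Cd4 read 109 to 236 CPM and Cd8a at most 2.44 CPM in every library. Nr1i3 itself read 0 to 1.66 CPM in WT libraries and 0 to 1.43 CPM in 8 of the 9 Nr1i3-/- libraries. The library labelled siLP Nr1i3-/- a read 9.49 CPM, against its label. Counts are summed per gene and cannot show whether reads fell in the deleted exons, so this gene checks the labels poorly, and for the 4 genes the fold changes averaged over genotype or organ and those in siLP are given with and without it, as are the calls of other genes in siLP against spleen.

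Chemokine message made up a large share of these transcriptomes, and nearly all of it came from these genes. Levels were compared between genes as TPM, in which the counts are divided by gene length and scaled to the same total in every library, computed here with the summed length of each gene's annotated exons. That length, 960 bases for Ccl5, 766 for Ccl3, 660 for Ccl4 and 523 for Xcl1, covers all annotated transcripts and can exceed that of the transcript the cells use. The 4 genes together held 0.830% to 8.23% of all TPM, with a median of 3.12% over the 18 libraries. They held 94.7% to 99.96% of the TPM of all 37 chemokine ligand genes examined. Ccl5 alone was among the 14 most abundant genes of every library, at a median rank of 3. Ccl4 had a median rank of 28.5 and Ccl3 of 123, while Xcl1 ranged from rank 375 to rank 16053. Within a library Ccl4 always exceeded Ccl3 in TPM, by 2.21 to 5.19 times, and Ccl5 exceeded Ccl4 by 1.09 to 34.0 times.

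**Figure D1:**
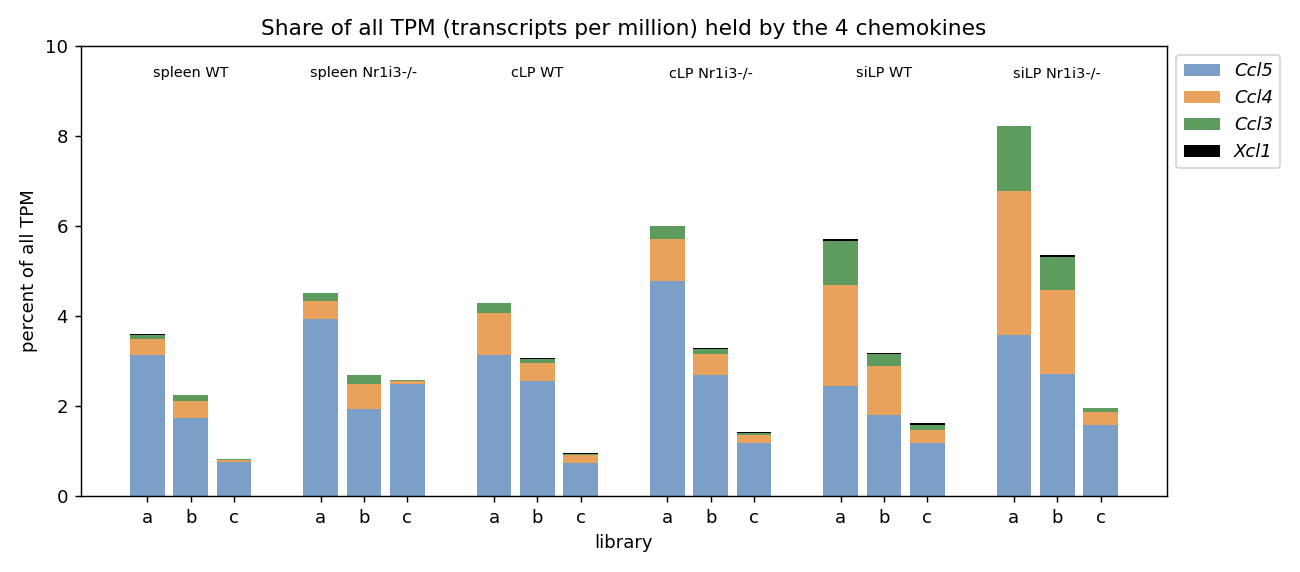
Each bar is 1 library and shows the percent of all TPM held by Ccl5, Ccl4, Ccl3 and Xcl1, stacked, for libraries a, b and c of each of the 6 groups. The bars run from 0.830% to 8.23%, and Ccl5 makes up 42.8% to 96.2% of a bar.

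The mix of the 4 genes differed in range between organs. Ccl5 made up 71.7% to 96.2% of their summed TPM in the 6 spleen libraries and 73.2% to 83.5% in cLP. In siLP it made up 42.8%, 56.3% and 72.4% in WT libraries a, b and c and 43.4%, 50.6% and 80.7% in Nr1i3-/- libraries. The 4 siLP libraries a and b lay below all spleen and cLP libraries, and both siLP libraries c lay within their range.

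In spleen Ccl3 read 476, 440 and 50.5 CPM in WT libraries a, b and c, and 839, 735 and 68.6 CPM in Nr1i3-/- libraries. In siLP it read 4311, 872 and 407 CPM in WT and 6062, 2751 and 316 CPM in Nr1i3-/- libraries. Libraries a were highest and libraries c lowest in every group, so the organs overlapped, although within each letter siLP lay above spleen. Ccl4 followed the same course. It read 1509, 1168 and 157 CPM in WT and 1819, 1653 and 207 CPM in Nr1i3-/- spleen. In siLP it read 8545, 3104 and 861 CPM in WT and 11565, 6189 and 796 CPM in Nr1i3-/- libraries. Again the spread between letters was larger than the difference between organs, and the groups overlapped.

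**Figure D2:**
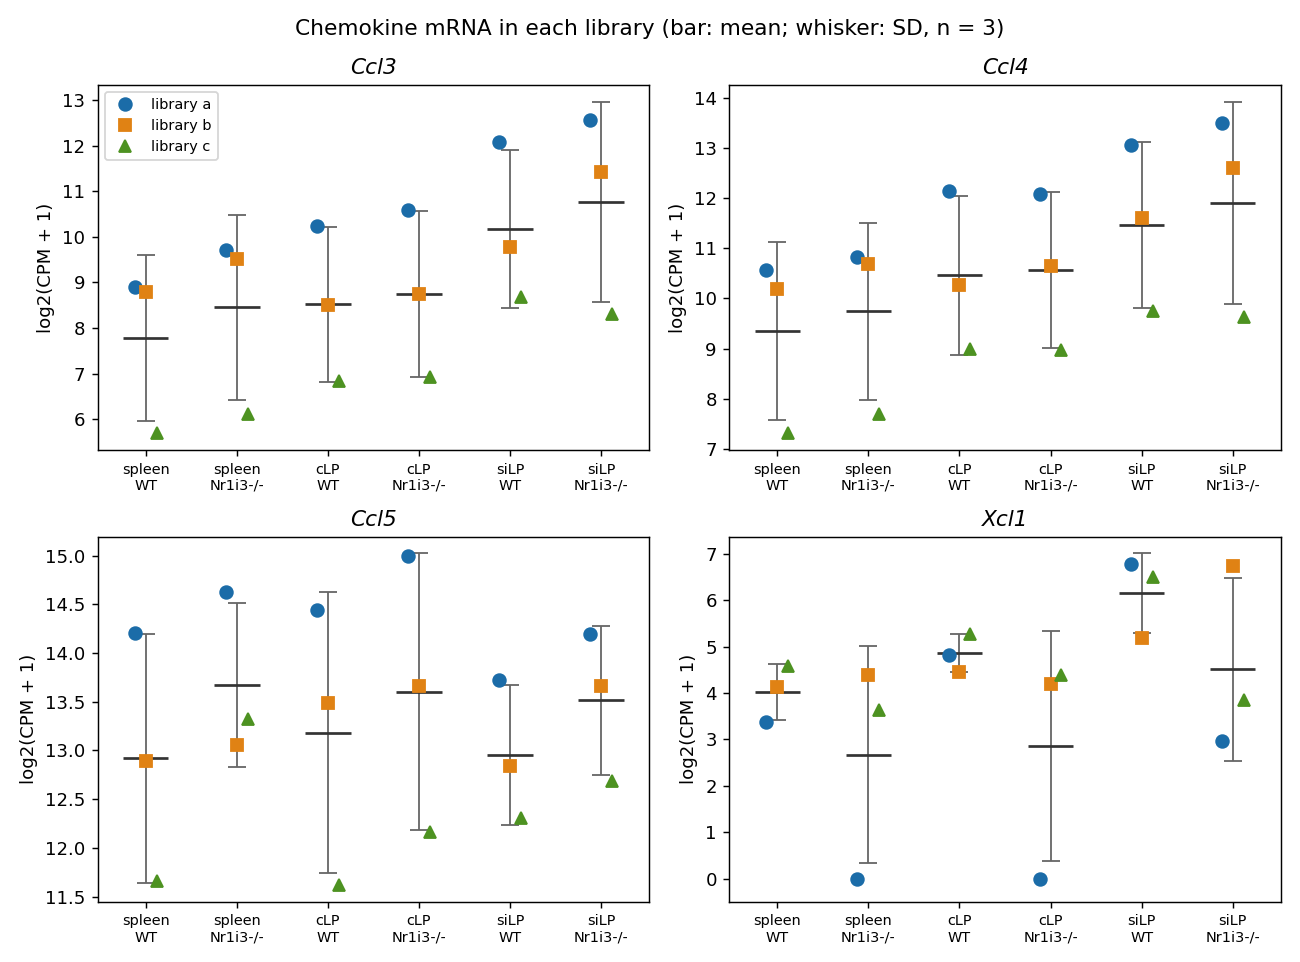
The y axes give log2(CPM + 1) of each gene in its own panel, and the x axis the 6 groups. Points are single libraries by letter, the bar is the group mean and the whisker the SD (n = 3). Ccl3 and Ccl4 are highest in library a and lowest in library c of every group, and Xcl1 is at 0 counts in 2 libraries a.

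In the comparison of siLP with spleen over both genotypes, Ccl3 had a log2 fold change of 2.50 ± 0.91 (SE) and Ccl4 of 2.24 ± 0.83. Neither passed edgeR's quasi-likelihood test with Benjamini-Hochberg adjustment over all tested genes (adjusted p = 0.344 and 0.357), in which 0 of the 4 genes and 0.847% of all genes passed. The unadjusted p was below 0.05 for these 2 of the 4 genes and for 9.65% of all genes, and DESeq2's Wald test also called 0 of 4 (adjusted p = 0.0569 for Ccl3 and 0.0780 for Ccl4). Set against the library of the same letter and genotype, siLP exceeded spleen in 6 of 6 pairs for both genes, a pattern that 6.14% of tested genes share. The paired differences in log2(CPM + 1) ran from 0.99 to 3.18 for Ccl3 and from 1.41 to 2.67 for Ccl4. Without the library labelled siLP Nr1i3-/- a, the fold changes were 2.01 for Ccl3 and 1.83 for Ccl4. Exact two-sided permutation of organ within genotype gave p = 0.075 for Ccl3 and 0.07 for Ccl4, unadjusted, among 52 such tests. Whether same-letter libraries belong together is not given in the labels, and the calls of Ccl3 and Ccl4 depend on it, as the last section shows. In bulk samples, fewer cells that make a message and less message per cell cannot be told apart.

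Between the 2 intestinal sites, Ccl3 and Ccl4 were again higher in siLP in 6 of 6 same-letter pairs, a pattern of 3.47% of tested genes. Ccl3 read 1206, 361 and 113 CPM in WT and 1531, 430 and 121 CPM in Nr1i3-/- cLP, and its log2 fold change for siLP over cLP was 1.93 ± 0.89 (edgeR, adjusted p = 0.585). Ccl4 read 4525, 1225 and 505 CPM in WT and 4326, 1601 and 502 CPM in Nr1i3-/- cLP, with a log2 fold change of 1.26 ± 0.80 (adjusted p = 0.779). By edgeR 0 of 4 genes passed, as did 0% of all genes, and 1 of 4 had an unadjusted p under 0.05 against 8.34% of all genes. DESeq2 also called 0 of 4. Without the library labelled siLP Nr1i3-/- a, the value was 1.43 for Ccl3 and 0.84 for Ccl4.

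In cLP against spleen Ccl3 and Ccl4 differed less. The log2 fold change was 0.57 ± 0.86 for Ccl3 and 0.97 ± 0.80 for Ccl4 (edgeR, adjusted p = 0.867 and 0.674), with 0 of 4 genes past the threshold against 3.07% of all genes, 0 of 4 against 15.0% at an unadjusted p under 0.05, and 0 of 4 by DESeq2. Ccl3 was higher in cLP in 4 of 6 same-letter pairs and Ccl4 in 5 of 6. Both b pairs of Ccl3 and the Nr1i3-/- b pair of Ccl4 went the other way. Without the 6 libraries a the value for Ccl3 turned to -0.28, and for Ccl4 it became 0.30. Leaving out cLP WT a or cLP Nr1i3-/- a alone also turned Ccl3, to -0.05 and -0.10. The order of the organs for Ccl3 and Ccl4 was thus siLP, cLP, spleen by group mean. No neighbours in that order passed in this fit, which leaves out the letters. A fit with the letters as a block is given in the last section. Xcl1, described below, had the same order of group means.

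Ccl5 showed no such order. In spleen it read 18942, 7621 and 3222 CPM in WT and 25318, 8508 and 10225 CPM in Nr1i3-/- libraries a, b and c. In siLP it read 13509, 7315 and 5060 CPM in WT and 18731, 12971 and 6580 CPM in Nr1i3-/- libraries. In cLP it read 22289, 11499 and 3139 CPM in WT and 32655, 12954 and 4569 CPM in Nr1i3-/- libraries. All 6 groups overlapped, and libraries a were the highest of each group. The log2 fold change was -0.20 ± 0.55 for siLP over spleen, 0.25 ± 0.55 for cLP over spleen and -0.45 ± 0.55 for siLP over cLP (edgeR, adjusted p = 0.978, 0.918 and 0.936). Same-letter pairs were split, with siLP above spleen in 2 of 6 in CPM and 3 of 6 in TPM. The sign of each of these values turned under at least 1 alternative. Without the 6 libraries a it became 0.13 for siLP over spleen. Without cLP WT a it became -0.13 for cLP over spleen, and without cLP Nr1i3-/- a it became 0.02 for siLP over cLP. Leaving out the library labelled siLP Nr1i3-/- a gave -0.41 for siLP over spleen and -0.66 for siLP over cLP.

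Xcl1 was present at far lower levels. It read 9.44, 16.4 and 22.9 CPM in WT spleen libraries a, b and c, 27.4, 21.0 and 37.9 CPM in WT cLP, and 110, 35.2 and 90.0 CPM in WT siLP. Each WT siLP library lay above each WT spleen library, in CPM and in TPM, as for 7.37% of tested genes. In Nr1i3-/- libraries it read 0, 19.8 and 11.5 CPM in spleen, 0, 17.2 and 19.996 CPM in cLP, and 6.78, 106 and 13.5 CPM in siLP. Here the organs overlapped, since 2 of the siLP libraries lay within the range of the other organs. Over both genotypes the log2 fold change of siLP over spleen was 2.14 ± 1.04 (edgeR, adjusted p = 0.533), with siLP higher in 6 of 6 same-letter pairs. Exact two-sided permutation of organ within genotype gave p = 0.05, unadjusted. The value was 1.60 ± 1.02 for siLP over cLP (adjusted p = 0.780, higher in 5 of 6 pairs) and 0.54 ± 1.01 for cLP over spleen (adjusted p = 0.897). The values of Xcl1 without the library labelled siLP Nr1i3-/- a were 2.41 for siLP over spleen and 1.85 for siLP over cLP.

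**Figure D3:**
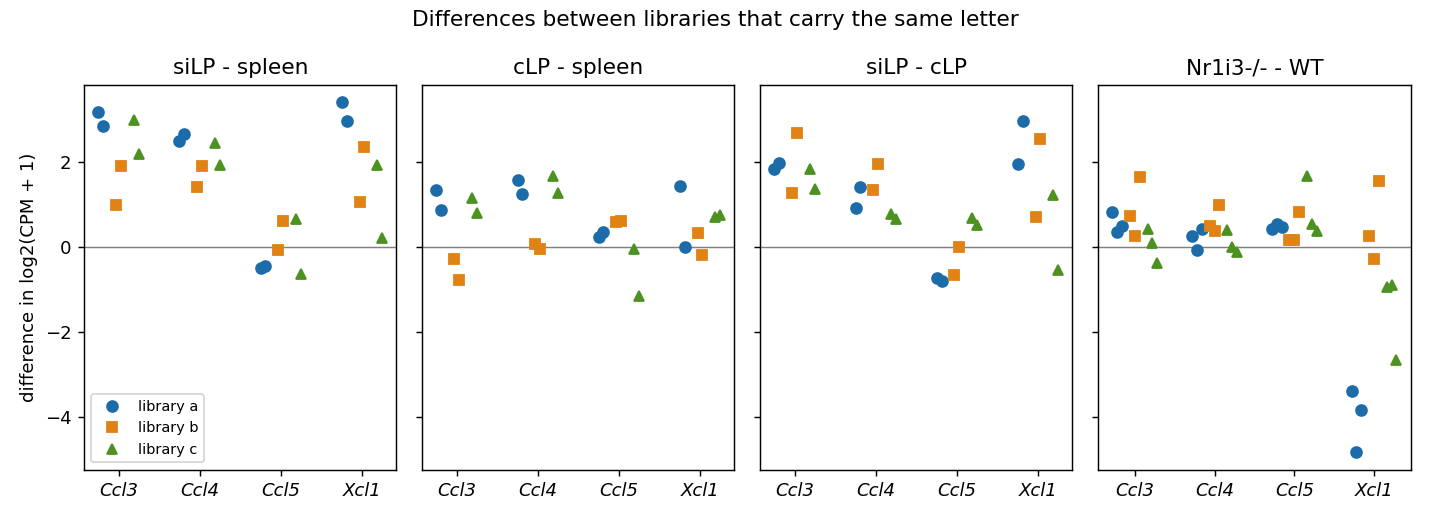
Each point is the difference in log2(CPM + 1) between 2 libraries of the same letter, for siLP minus spleen, cLP minus spleen and siLP minus cLP (6 points per gene, within genotype) and Nr1i3-/- minus WT (9 points per gene, within organ). For siLP minus spleen all points of Ccl3, Ccl4 and Xcl1 lie above 0, and for genotype all points of Ccl5 lie above 0.

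The genotype comparison asks what differs between cells that lack CAR and WT cells in the same organ. By edgeR none of the 4 genes passed in spleen, cLP, siLP or their average (0 of 4 in each, also at an unadjusted p under 0.05 and by DESeq2). Of all genes, 0% passed in each organ and 0.0134% in the average, where 5.77% had an unadjusted p under 0.05. Averaged over organs, the log2 fold change was 0.52 ± 0.45 for Ccl5, 0.59 ± 0.71 for Ccl3, 0.33 ± 0.65 for Ccl4 and -0.92 ± 0.82 for Xcl1 (adjusted p = 1.00 each). Without the library labelled siLP Nr1i3-/- a these became 0.39, 0.25, 0.04 and -0.76. Without cLP Nr1i3-/- a the average for Ccl4 turned to -0.03. In siLP alone, Ccl3 had 0.71 ± 1.22, Ccl4 0.57 ± 1.12, Ccl5 0.56 ± 0.79 and Xcl1 -0.90 ± 1.42. Leaving out the library labelled siLP Nr1i3-/- a turned Ccl3 to -0.31 and Ccl4 to -0.28, and gave 0.17 for Ccl5 and -0.41 for Xcl1.

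Ccl5 was the only one of the 4 whose same-letter pairs all pointed one way by genotype. It was higher in the Nr1i3-/- library in 9 of 9 pairs, on the CPM and on the TPM scale, where 0.948% of tested genes were higher in all 9 in CPM. The differences in log2(CPM + 1) ran from 0.16 to 1.67 with a median of 0.47, smaller than the distance between letters. An exact two-sided permutation test that reassigned genotype within each organ, across letters, gave p = 0.258. The difference was 0.48, 0.39 and 0.86 when averaged within letters a, b and c. Ccl3 was higher in Nr1i3-/- libraries in 8 of 9 pairs and Ccl4 in 6 of 9.

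Xcl1 went in the opposite direction, lower in Nr1i3-/- libraries in 7 of 9 pairs. Alone among these genes, it shares a chromosome with both alleles that differ by genotype. It lies 6.28 Mb from Nr1i3 and 26.8 Mb from Ptprc, and the part of linked sequence was not tested. Libraries a carried most of the Xcl1 difference. Spleen Nr1i3-/- a and cLP Nr1i3-/- a held 0 Xcl1 counts, against 205 and 487 counts in the WT libraries of the same letter. With the floor of 3 counts per library, Xcl1 was at least 59.7-fold lower in the former and at least 148-fold lower in the latter. In siLP the 2 libraries a held 2435 counts in WT and 140 in Nr1i3-/- cells, a ratio of 16.2. That Nr1i3-/- library is the one that read 9.49 CPM of Nr1i3 against its label. Without it the edgeR value of Xcl1 in siLP moved from -0.90 to -0.41. Among libraries b, Xcl1 was instead higher in Nr1i3-/- cells in spleen and siLP. In cLP all 3 Nr1i3-/- libraries lay below all 3 WT libraries in CPM, as for 3.32% of tested genes, and in TPM the groups overlapped. Exact two-sided permutation of genotype within organ gave p = 0.0367 on log2(CPM + 1), unadjusted among 52 tests. Without the 6 libraries a that exact permutation p was 0.343, and the edgeR value, -0.92 averaged over organs, became -0.37 ± 0.44. Limma on log2(TPM + 1) gave -2.01 for the same average, and no setting called it (lowest adjusted p = 0.656). Libraries a also had the fewest genes detected, and the part of this in the zero counts was not tested.

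No difference of an organ effect between genotypes was detected. For each of siLP over spleen, cLP over spleen and siLP over cLP, the interaction by edgeR called 0 of the 4 genes and 0% of all genes. The interaction for siLP over spleen was -0.06 ± 1.72 for Ccl3, 0.19 ± 1.58 for Ccl4, 0.00 ± 1.11 for Ccl5 and -0.26 ± 2.00 for Xcl1 on the log2 scale, so changes of several fold would have gone undetected. Without the library labelled siLP Nr1i3-/- a, these interactions were -1.07 ± 1.84, -0.65 ± 1.69, -0.39 ± 1.21 and 0.25 ± 2.05, with 0 of 4 genes and 0% of all genes called.

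The spread between letters was the largest difference in the CC genes. Averaged over the 6 groups, library a exceeded library c by 3.59 for Ccl3, 3.30 for Ccl4 and 2.08 for Ccl5 in log2(CPM + 1), in 6 of 6 groups each. Only 2 of the 14876 tested genes had a larger mean difference than Ccl3, and 4 had a larger one than Ccl4, while the median over all genes was -0.17. Library b exceeded library c by 2.37 for Ccl3 and 2.27 for Ccl4, in 6 of 6 groups in CPM and in TPM. The order of a over b depended on the scale. It held in 6 of 6 groups for Ccl3 and Ccl4 in CPM and in 4 of 6 in TPM. Xcl1 went the other way, with library a below library c in 5 of 6 groups in CPM and 6 of 6 in TPM.

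Marker genes of other cells were also read by letter. The summed TPM of 14 macrophage, monocyte and neutrophil markers had a median of 105 in libraries a, 123 in b and 85.0 in c, and so was highest in b. Lyz2, the most abundant of them, had a median of 37.5 CPM in libraries a, where 2 read 0 CPM, 15.9 in b and 14.6 in c. Cd68, the next most abundant, had 18.7, 32.2 and 12.4 CPM. The summed TPM of 12 markers of CD8, NK, innate lymphoid and gamma delta cells had a median of 52.0 in a, 68.9 in b and 114 in c, and so was lowest where Ccl3 was highest. That of 12 T cell identity genes lay at 20999, 21730 and 19558. Their part in the spread of Ccl3 between letters was not tested.

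Within every letter Ccl3 and Ccl4 varied together across the 6 groups. With 1 library per group, group means could not be removed, so differences between organs and genotypes enter every coefficient below. The permutations treat the groups as exchangeable, so their p-values do not separate a relation between genes from a shared organ difference. Over the 6 libraries of a letter, 1 per group, Pearson's r between them was 0.968 in a, 0.956 in b and 0.943 in c (exact permutation p = 0.00833, 0.00556 and 0.0139, adjusted p = 0.06 each over 18 relations). Spearman's rho was 0.943, 0.829 and 0.943 (exact permutation p = 0.0167, 0.0583 and 0.0167, adjusted p = 0.15, 0.263 and 0.15). Without the 2 libraries farthest from the median of Ccl3, r was 0.916, 0.811 and 0.990. The libraries formed separate sets by letter, so no coefficient over all 18 is given as a result. For Ccl3 and Ccl5 the sign of r differed between letters, with r of -0.426, 0.188 and 0.155 (exact permutation p = 0.408, 0.818 and 0.757, adjusted p = 0.658, 0.866 and 0.852), and rho of -0.429, -0.029 and 0.257 (exact permutation p = 0.419, 1 and 0.658, adjusted p = 0.755, 1 and 0.790). Without the 2 farthest libraries r was 0.820, -0.567 and -0.140. Ccl3 and Xcl1 had r of 0.368, 0.945 and 0.470 (exact permutation p = 0.475, 0.0167 and 0.335, adjusted p = 0.658, 0.06 and 0.658) and rho of 0.145, 0.600 and 0.314 (exact permutation p = 0.778, 0.242 and 0.564, adjusted p = 0.850, 0.621 and 0.790), with r of -0.264, 0.855 and 0.385 without the 2 farthest. Ccl4 and Xcl1 had r of 0.444, 0.959 and 0.454 (exact permutation p = 0.378, 0.0139 and 0.3625, adjusted p = 0.658, 0.06 and 0.658) and rho of 0.348, 0.829 and 0.429 (exact permutation p = 0.494, 0.0583 and 0.419, adjusted p = 0.790, 0.2625 and 0.755), with r of 0.798, 0.103 and 0.277 without the 2 farthest. None of these relations passed the adjustment.

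**Figure D4:**
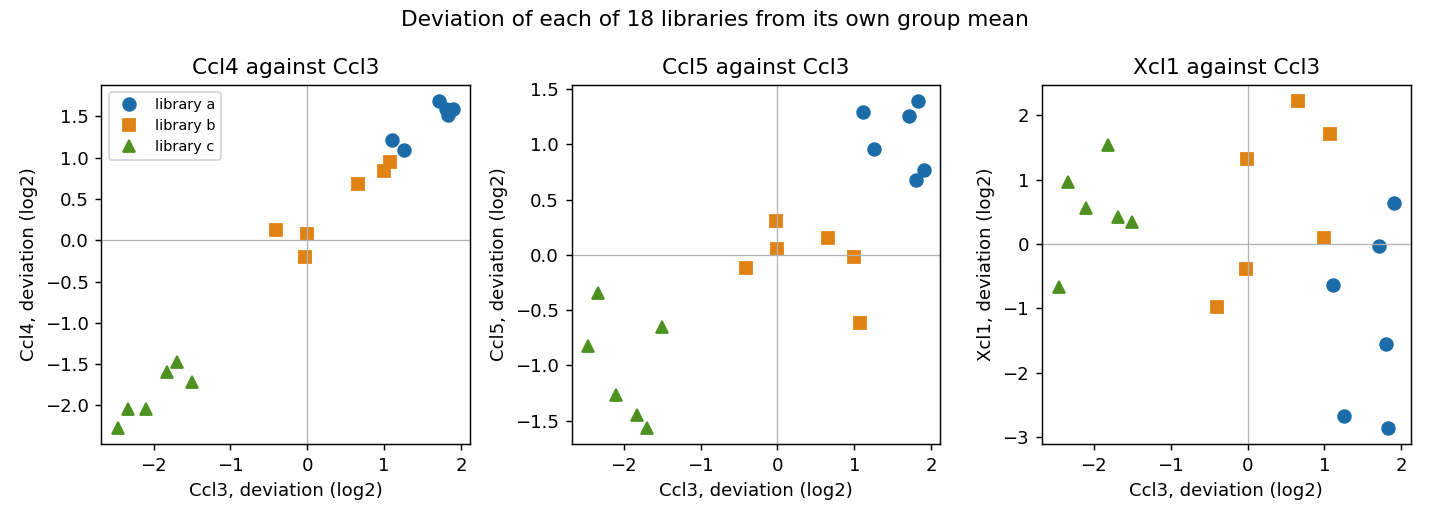
Each point is 1 of 18 libraries, and both axes give its deviation from its own group mean in log2(CPM + 1), for Ccl4, Ccl5 and Xcl1 against Ccl3. Letters form separate sets along the Ccl3 axis, and Ccl4 follows Ccl3 within and between them. Libraries a lie highest for Ccl3, while Xcl1 is lower in a than in c in 5 of 6 groups.

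The genes most like each chemokine were ranked by Pearson's r of log2 CPM over all 18 libraries among 8441 genes with a mean of at least 5 CPM, a measure to which the letters contribute. Ccl3 and Ccl4 were each other's nearest gene (r = 0.984). Next for Ccl3 came Mt1, a metallothionein (0.877), Amd2 (0.852), Egr2, an immediate early transcription factor (0.842), and Lilrb4a, an inhibitory receptor (0.842). For Ccl4 they were Mt1 (0.899), Lilrb4a (0.893), Gpr65, a proton-sensing receptor (0.878), and Lilr4b (0.878). For Ccl5 the nearest was Nkg7, a cytotoxic granule protein (0.961), then Cd53 (0.909), Tm2d1 (0.907), Cysltr2 (0.890) and Cd3g (0.888). The other CC genes ranked 565 and 595 for Ccl5. For Xcl1 they were Nosip (0.917), Spg11 (0.906), Alg1 (0.900), Mtrf1l (0.892) and Pepd (0.891), and Ccl3, Ccl4 and Ccl5 had r of -0.09, -0.08 and -0.57 with Xcl1.

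Receptors and decoys of these chemokines were read in the same libraries. Xcr1, the receptor of Xcl1, read group means of 1.64 to 6.68 CPM, and its log2 fold change for siLP over cLP was -1.01 ± 0.47 (edgeR, adjusted p = 0.591). Ccrl2, an atypical receptor, had a log2 fold change of 1.44 ± 0.38 for siLP over spleen (adjusted p = 0.119). Ackr2 and Gpr75 were not tested, with at most 0.0493 and 0.197 CPM in any library.

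Of 33 other chemokine ligands, 25 were tested, and 6 rose in cLP against spleen and 1 in siLP against spleen, with 0 lower, and 0 passed by genotype (1 of 25 at an unadjusted p under 0.05). Their median log2 fold change was 4.15 for cLP over spleen and 2.50 for siLP over spleen, beside 0.00 and -0.01 for all genes. Of all genes, 3.07% and 0.847% passed in these comparisons, and 5.77% had an unadjusted p under 0.05 by genotype. With genes at 0 in all libraries of an organ set to the floor of 3 counts per library, these medians were 3.83 and 2.04. Cxcl10, an interferon-induced chemokine that attracts Th1 cells, rose by 3.59 ± 0.54 in cLP (adjusted p = 0.00141) and by 2.50 ± 0.51 in siLP (adjusted p = 0.0249). Ccl7 and Ccl11 had 0 counts in all spleen libraries and group means of 8.90 to 31.5 and 12.4 to 26.7 CPM in cLP. Cxcl12, a stromal chemokine, had 8.77 ± 2.07 in cLP (adjusted p = 0.0301). Single libraries read 0 to 0.327 CPM in spleen, near the floor, and 0 to 70.3 CPM in cLP, so the size of this change is uncertain. Markers of stromal and endothelial cells were read beside these ligands. In libraries a their summed TPM was 19.7 to 108, and that of the other ligands 19.7 to 333. Of 10 such markers, 7 were tested and 5 rose in cLP against spleen. By organ, their summed TPM was 16.7 to 21.1 in spleen, 22.1 to 402 in cLP and 24.8 to 108 in siLP. Dcn, a fibroblast gene, had group means of 496 and 604 CPM in cLP and at most 0.0958 CPM in spleen. Single cLP libraries read 0.169 to 1049 CPM. Epithelial markers rose in 4 of 10 tested. The part of these cells in the ligand values was not tested.

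Ccl3 and Ccl4 were lower in cLP than in siLP in each same-letter pair. Those stromal markers had a median log2 fold change of -4.54 for siLP over cLP. There 0 of 7 passed, as did 0% of all genes, and the part of stromal cells in Ccl3 and Ccl4 was not tested. Macrophages also make Ccl3 and Ccl4. The summed TPM of their 14 markers was 32.0 to 111 in WT and 16.5 to 135 in Nr1i3-/- spleen, and 183 to 360 in WT and 87.5 to 159 in Nr1i3-/- siLP. For siLP over spleen, 10 of 13 tested markers had a log2 fold change above 0 in WT (median 0.71), 5 of 13 in Nr1i3-/- (median -0.27) and 8 of 13 over both (median 0.33). Lyz2, their most abundant gene, read 0 to 7.44 CPM in spleen, 7.92 to 70.6 in cLP and 24.6 to 119 in siLP, and 0 of 13 tested markers passed (Lyz2 3.90 ± 1.01, adjusted p = 0.114). Cd68 had a median of 16.3 CPM in spleen and 27.8 in siLP, and C1qb of 8.92 and 16.3 CPM. For Csf1r these medians were 1.08 and 0.0592 CPM, and for Adgre1 1.54 and 0.677 CPM. In siLP Csf1r read 0 to 2.28 CPM and Adgre1 0 to 2.08 CPM, and both are among the scarcer markers (0.993 and 0.823 CPM on average). The part of macrophages in the Ccl3 and Ccl4 values was not tested.

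Of 21 tested genes from T cell receptor signalling to the immediate early response, 12 rose in siLP against spleen and 10 in cLP, with 0 lower. Their median log2 fold change was 1.94 and 1.91, beside -0.01 and 0.00 for all genes, of which 0.847% and 3.07% passed. Nr4a1, an immediate early receptor gene, rose by 5.34 ± 0.47 in siLP (adjusted p = 2.93e-05) and by 4.73 ± 0.46 in cLP (adjusted p = 3.41e-05). Fosb rose by 3.88 ± 0.40 and 3.83 ± 0.40, and Cd69, an early activation marker, by 3.16 ± 0.37 and 3.25 ± 0.37. Between siLP and cLP, 0 of 21 passed, as did 0% of all genes. The median of the 21 was 0.02, and their part in the Ccl3 and Ccl4 values was not tested. Of 13 tested effector products released with chemokines, 2 rose in siLP and 4 in cLP against spleen. The cytokine genes Tnf (2.91 ± 0.36, adjusted p = 0.000436) and Ifng (2.36 ± 0.46, adjusted p = 0.0189) rose in siLP. Fasl, which encodes a death ligand, rose by 1.65 ± 0.34 in cLP. By genotype 0 of 13 passed, with Gzma, a granule protease, at 2.76 ± 0.47 (adjusted p = 0.113).

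Of 16 effector lineage transcription factors, 2 rose in siLP and the same 2 in cLP against spleen, Bhlhe40 (2.14 ± 0.24 and 2.45 ± 0.24) and Irf4 (2.15 ± 0.30 and 2.39 ± 0.30). Among all tested genes, 0.847% passed in siLP and 3.07% in cLP against spleen. Of 10 mRNA decay factors, which degrade short-lived messages, 2 rose in siLP and 4 in cLP. Zfp36 (tristetraprolin), which binds AU-rich elements, rose by 3.04 ± 0.49 in siLP (adjusted p = 0.0038) and by 1.81 ± 0.46 in cLP (adjusted p = 0.0451). Zfp36l1 rose by 1.69 ± 0.32 and 1.56 ± 0.32. Of 12 T cell identity genes, 1 rose in each, the costimulatory receptor gene Cd28 (1.77 ± 0.36 and 2.22 ± 0.36). Without the library labelled siLP Nr1i3-/- a, 86 genes rose or fell in siLP against spleen, 0.544% of those tested. The calls of Ifng (1.89, adjusted p = 0.0706), Dusp2 (1.83, adjusted p = 0.0854), Zfp36l1 (1.53, adjusted p = 0.0675) and Cd28 (1.64, adjusted p = 0.0705) in siLP were then lost by edgeR. The call of Cxcl10 (2.63, adjusted p = 0.0328) was kept, as were those of Tnf, Irf4, Bhlhe40, Zfp36 and 11 of the 12 genes of the T cell receptor list.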

How the data were processed

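The table the authors deposited holds estimated counts per gene for 18 libraries, per the file headers. Its columns name a group but no replicate number, so a, b and c only name them. The other 36 columns of values by library were not used, since nothing in the labels ties them to single libraries. The submitters' processing notes name Salmon, DESeq2 and mm10, with no roles. The labels name a SMART-Seq v4 kit for cDNA. Columns marked negative for CD45.1 were taken as Nr1i3-/-, the only other genotype. Counts were rounded, filtered with filterByExpr and scaled by TMM, and 6 group means were fitted with edgeR 4.0.16 (glmQLFit and glmQLFTest, common biological coefficient of variation 0.791), with Benjamini-Hochberg adjustment and a threshold of 0.05. A replicate is a library. All 34162 identifiers matched GENCODE vM21, whose exon lengths served to compute TPM from the counts. Exact permutations used log2(CPM + 1). The pipeline was tested on simulated data. The genes and lists were chosen with earlier results of these data known. Genes named besides the 4 were up to 4 called members of a list and comparison with the smallest p, or at most 2 where none was called, shortened in the text, and the 5 genes most like each chemokine; Adgre1, Csf1r, Dusp2 and the marker genes given by level were named after their values were seen. Reads without molecular identifiers make floors cover counting error only. One item of the receptor list is not reported here, and no count or median over that list is given.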

Additional observations from a re-analysis of the deposited data

How the results depend on the processing

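The 4 genes were refitted in 7 comparisons with other size factors, no filter, DESeq2, voomWithQualityWeights, only the groups compared, the column ending as a block, without the 6 libraries a, and without each library, and, chosen after seeing the data, with limma on log2(TPM + 1) of the TPM computed here. The planned limma fit on the deposited TPM was not run, since those columns could not be tied to single libraries. None of the settings other than those with the block called any of the 4 genes. The columns carry letters and no replicate numbers. Deviations from the group mean correlated above 0.1 in 41 of 45 same-letter pairs of libraries (lowest 0.023) and in 7 of 90 other pairs, so the pairing is a hint and not part of the design. With the replicate block, siLP over spleen was 2.36 for Ccl3 (adjusted p = 0.000597) and 2.13 for Ccl4 (adjusted p = 0.00018), cLP over spleen was 0.98 for Ccl4 (adjusted p = 0.0233) and siLP over cLP was 1.87 for Ccl3 (adjusted p = 0.0415). With the block and without the 6 libraries a, chosen after seeing the data, siLP over spleen was 2.04 for Ccl3 (adjusted p = 0.0372) and 1.92 for Ccl4 (adjusted p = 0.0182). No genotype value was called with the block. Ccl5 reversed in that last fit to 0.080 (siLP over spleen), -0.0067 (cLP over spleen) and 0.087 (siLP over cLP), with voomWithQualityWeights to 0.21 (siLP over spleen) and 0.012 (siLP over cLP), with limma on log2(TPM + 1) to 0.0036 (siLP over spleen), and without the 6 libraries a to 0.13 (siLP over spleen), where Ccl3 reversed to -0.28 (cLP over spleen). The cause was not tested.

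Leaving out 1 library at a time gave, for siLP over spleen, 1.72 to 2.77 for Ccl3, 1.69 to 2.52 for Ccl4, 1.13 to 2.56 for Xcl1 and -0.46 to 0.25 for Ccl5. For cLP over spleen it gave -0.10 to 0.83 for Ccl3 and -0.23 to 0.71 for Ccl5, and for siLP over cLP -0.72 to 0.020 for Ccl5. For genotype it gave -0.032 to 0.75 for Ccl4 averaged over organs. In spleen it gave -0.13 to 0.92 for Ccl4 and -0.12 to 1.48 for Ccl5. In cLP it gave -1.06 to 1.57 for Ccl3, -1.03 to 1.32 for Ccl4 and -0.53 to 1.21 for Ccl5. In siLP it gave -0.31 to 2.28 for Ccl3 and -0.28 to 1.67 for Ccl4. Where a group then holds 2 libraries, the spread is pooled over the groups. Over all genes, calls ranged over the settings from 78 to 396 for siLP over spleen (126 as reported), 207 to 1828 for cLP over spleen (456), 0 to 434 for siLP over cLP (0) and 1 to 122 for the averaged genotype (2). On average Ccl3, Ccl4 and Ccl5 differed more between letters a and c than between organs or genotypes, and the part of depth was not tested.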
